A study of Mus musculus with 47 samples.

Results

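The transcripts of the respiratory chain and ATP synthase were followed in C2C12 cultures. Members were taken by symbol: the numbered Nduf subunits of complex I, Sdha to Sdhd, the Uqcr genes and Cyc1, Cox4 to Cox8, the Atp5 genes, and the 13 protein-coding genes of mitochondrial DNA, with pseudogenes dropped. The rule found 98 of the 45706 genes in the tables. Of these, 85 are nuclear (35 in complex I, 4 in complex II, 9 in complex III, 20 in complex IV, 17 in complex V) and 13 are mitochondrial, here called mt- genes (7 in complex I, 1 in complex III, 3 in complex IV and 2 in complex V). The rule uses symbols and no expression value, though the set was proposed with earlier results of these data known.

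The respiratory chain passes electrons from NADH and succinate to oxygen and pumps protons across the inner mitochondrial membrane, and ATP synthase (complex V) uses the returning protons to make ATP. Complexes I, III, IV and V are built from subunits of both genomes, whereas complex II is nuclear throughout. The mt- genes are read from long transcripts that are cut into single mRNAs, all but mt-Nd6 from the same strand, and striated muscle, rich in mitochondria, carries its own isoforms of several complex IV subunits. Doxycycline belongs to the tetracyclines, a class known to act on bacterial and mitochondrial ribosomes.

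C2C12 is an immortalized mouse myoblast line that fuses into myotubes when serum is withdrawn. C2C12 iMyoD1 is a puromycin-selected polyclonal population carrying a Halo-tagged MyoD1 transgene, integrated by PiggyBac behind the doxycycline-responsive TRE3GS promoter, beside its own Myod1, and not every nucleus expresses the transgene. Each iMyoD1 culture received doxycycline (+dox) or vehicle (no dox): at 0 h in growth medium after 24 h of treatment, and after 24, 48 or 120 h of differentiation with treatment of the same length. Cultures at 120 h were also trypsinized and passed through a 40 µm strainer, giving a myoblast-enriched flow-through and a myotube-enriched retentate. C2C12 iCdh23 and C2C12 iMcam, which carry inducible genes for the adhesion proteins Cdh23 and Mcam, were treated with dox or left without it for 48 h of differentiation. Polyadenylated RNA of 47 libraries in 16 groups was sequenced, with 3 biological replicates a group and 2 (replicates 2 and 3) in the myoblast-enriched +dox group. Every +dox group received the drug together with an induced gene, and no dox-treated line without a transgene was analysed here, so the effects of the drug and of the induced gene cannot be told apart.

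Library totals ran from 15066338 to 50950674 estimated counts, with a median of 22837926. Levels are given as CPM, counts scaled by library totals and by TMM factors, which hold the typical gene at the same level in all libraries, so that CPM are not plain shares of a library's counts. Log2 fold changes come from edgeR's quasi-likelihood test over all genes, and a gene was called, or is said to have risen or fallen, where its Benjamini-Hochberg adjusted p was under 0.05. Myod1 stood at 177.5 ± 5.77 CPM (SD, n = 3) without dox and 188.1 ± 9.59 CPM (n = 3) with dox at 0 h, and at 134.6 ± 4.31 CPM (n = 3) and 117.0 ± 6.67 CPM (n = 3) at 24 h. At 48 h it stood at 387.6 ± 4.93 and 305.9 ± 14.9 CPM, and at 120 h in whole cultures at 279.9 ± 42.3 CPM without and 92.03 ± 8.46 CPM with dox (n = 3 each), lower in all +dox libraries. Whether the counting reference held the transgene is not given in the sources used here, so these counts do not check the dox labels. Mcam was at 17.12 to 19.8 CPM without and 69.04 to 74.74 CPM with dox in C2C12 iMcam, and Cdh23 at 347.7 to 450.6 CPM and 425.7 to 568.1 CPM in C2C12 iCdh23, where the groups overlapped. The 5 defining markers of leukocytes, endothelium, epithelium, fat and glia (Ptprc, Pecam1, Krt8, Adipoq, Sox10) summed to at most 1.565 CPM in any library, while Myod1, Myf5, Des and Pax7, expressed by myoblasts, summed to at least 310.3 CPM in every library. The tables for 0 and 24 h, for 48 and 120 h whole cultures, and for the fractions and the adhesion lines were deposited separately, so comparisons of 48 h with 24 h and of C2C12 iMyoD1 with the adhesion lines span 2 tables, and time or line cannot be told apart from the table.

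Nuclear members have short transcripts, with a median of 703.5 nt against 2555 nt for all genes tested at 24 h, and 62 of the 85 are under 1000 nt. Libraries differed in how much of their count fell on short genes: genes under 700 nt held 5.87 to 7.113% of counts at 24 h without dox, 2.624 to 2.79% at 120 h in whole cultures without dox, and 4.01 to 9.247% in the fractions. A second fit, chosen after seeing the data, therefore entered each library's smooth trend of counts on transcript length as an offset, and is called the length-adjusted fit below. Counts per complex are from the fit without this adjustment. Scaling mattered as well. With library totals alone in place of TMM, a fit also chosen after seeing the data, the median log2 fold change of all genes tested moved with dox to 0.11 at 0 h, 0.26 at 24 h, 0.15 at 48 h, 0.20 at 120 h, 0.33 in C2C12 iCdh23 and 0.21 in C2C12 iMcam, where TMM kept it between -0.002 and 0.02. Set against that median, the nuclear members' own median was the same to within 0.003 under both scalings in these 6 comparisons, so "rose" and "fell" mean relative to the typical gene. The myotube-enriched +dox replicate 1 stood apart, with the highest share on short genes and 3065 CPM of mt-Co1 against 37140 and 19060 CPM in replicates 2 and 3. The strand setting of the counting is not given in the sources used here, and 25 nuclear members overlap a gene on the other strand.

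The mt- genes held more counts than all nuclear members together in every library, by 2.014 times or more. At 24 h without dox the 13 mt- genes took 3.887% of counts and the nuclear members 1.17% (means, n = 3). Levels per length are given as TPM, computed here from the estimated counts and annotated transcript lengths. By these, mt-Co1 (the catalytic subunit of complex IV) was highest at a mean of 13627.5 TPM, with mt-Cytb at 7702.2, mt-Nd1 at 6292 and mt-Nd2 at 2536.9 TPM. The highest nuclear member was Atp5b, the catalytic beta subunit of ATP synthase, at 1561.2 TPM. The muscle isoforms Cox7a1 and Cox8b stood at 0.678 and 0.051 TPM at that time. Counts of 4 nuclear members passed the filter in no comparison: Cox4i2 (at most 3 counts in a library), Cox6b2 (at most 18), Cox7b2 (at most 5) and Cox8c (0 in every library). The other 81 nuclear members and all mt- genes were tested in at least 1 comparison.

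With dox, the summed mt- share of counts lay above the no dox range in 3 of the 8 pairs of groups. At 48 h in C2C12 iMyoD1 it was 3.051 ± 0.06% (SD, n = 3) without and 3.579 ± 0.242% (n = 3) with dox. At 120 h in whole cultures it was 4.443 ± 0.862% (n = 3) and 6.341 ± 0.487% (n = 3), and in C2C12 iMcam 2.976 ± 0.163% (n = 3) and 3.869 ± 0.728% (n = 3). None of these pairs overlapped, and each gave the smallest p that a 2-sided exact permutation test of 3 against 3 allows, 0.1. At 0 h and 24 h the shares overlapped (3.559 and 3.691%, exact p = 0.7, and 3.887 and 3.878%, exact p = 1.0), as they did in both fractions and in C2C12 iCdh23 (3.833 ± 0.23 and 4.897 ± 0.746%, n = 3 each, exact p = 0.2). At 0 h the nuclear share overlapped (1.108 and 1.111%, exact p = 0.9), and at 24 h it was 1.17% without and 1.253% with dox, with no overlap (exact p = 0.1). The nuclear share at 48 h was 1.464% without and 1.468% with dox in C2C12 iMyoD1. In C2C12 iMcam it was 0.8623% and 0.7543% without overlap (exact p = 0.1), and in C2C12 iCdh23 0.9443% and 0.8797% (exact p = 0.2). The ratio of mt- to nuclear counts was higher with dox in every +dox library of 48 h than in its own no dox group, at means of 2.086 and 2.462 in C2C12 iMyoD1, 4.066 and 5.552 in C2C12 iCdh23, and 3.47 and 5.138 in C2C12 iMcam (exact p = 0.1 each, n = 3 per group). At 120 h in whole cultures the nuclear share was also higher, at 0.9303% without and 1.116% with dox and no overlap (exact p = 0.1), and the ratio overlapped (4.803 and 5.692, exact p = 0.3). The ratio overlapped at 0 h (3.213 and 3.324, exact p = 0.7) and at 24 h too, where the mean with dox was the lower one (3.332 and 3.095, exact p = 0.3). Counts given to near-identical nuclear copies of several mt- genes, described below, are left out of these shares and ratios. In bulk RNA, fewer cells of a type and less RNA per cell cannot be told apart.

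**Figure D1:**
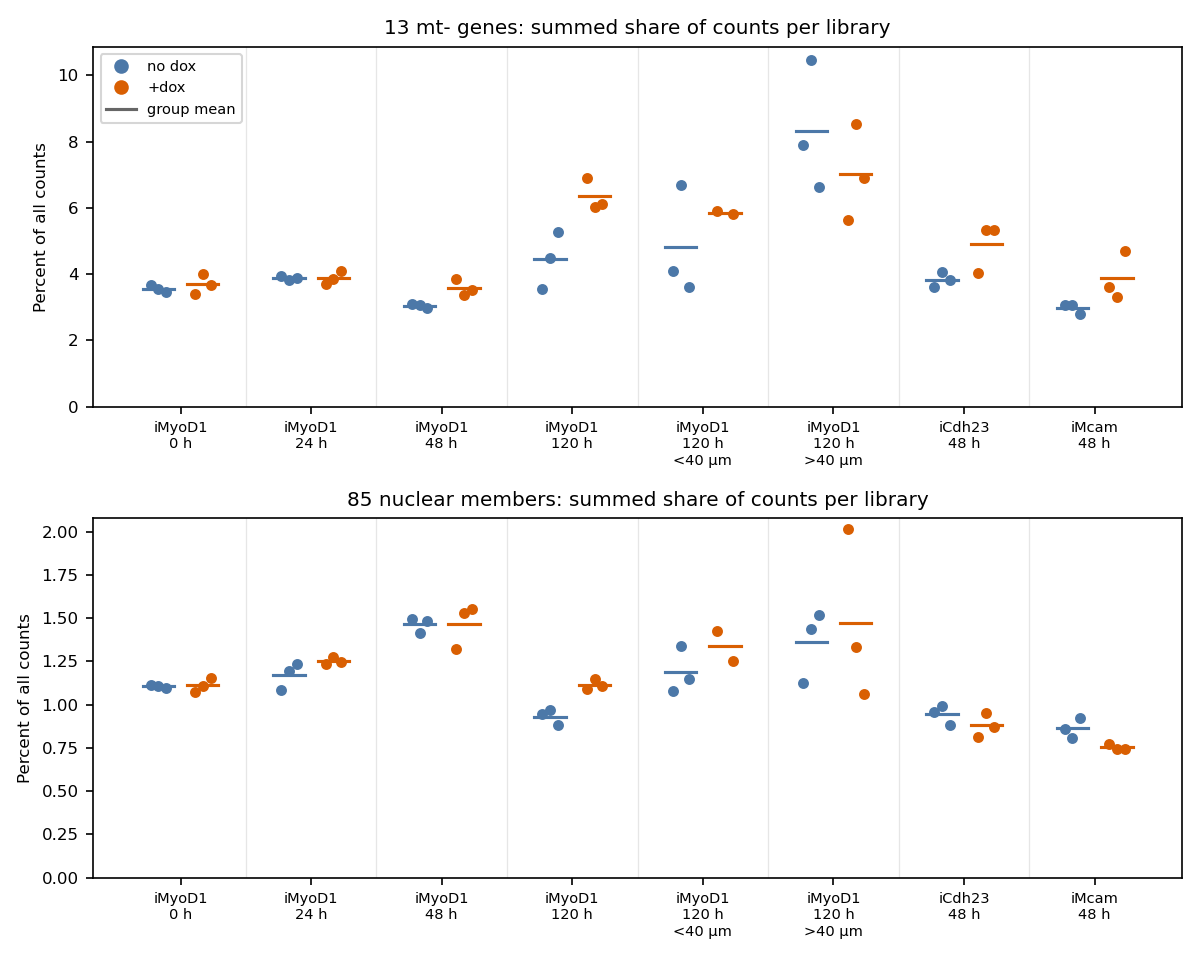
Share of all counts, in percent, held by the 13 mt- genes (one panel) and by the nuclear members (other panel) in each library, by group, with no dox in blue, +dox in orange and a bar at the group mean. At 48 h and at 120 h in whole C2C12 iMyoD1 cultures the +dox libraries lie above the no dox libraries for the mt- genes, and the nuclear shares at 48 h overlap.

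In C2C12 iMyoD1 the nuclear members fell more often than they rose with dox at 24 h relative to the typical gene, by small amounts, while their share of library totals was higher in every +dox library. At 24 h 7 rose and 34 fell of 80 tested, where 31.1% of all genes tested rose and 31.7% fell, and their median log2 fold change was -0.12. The largest falls at 5 CPM or more were those of Cox7b and Atp5g1, both described below, and the largest rises those of Atp5s and Ndufa13. In the length-adjusted fit 18 rose and 30 fell, the same 30 among the 34, with a median of -0.05. Of all genes 28.5% rose and 37.2% fell in that fit, so that the share of members that fell there lies at the background. Scaled to library totals alone, 32 rose and 2 fell (all genes: 50.5% rose, 16.5% fell), at a median of 0.14 against 0.26 for all genes. The falls of Cox6b1, Cox7a2l, Cox7b, Sdhd, Uqcrfs1 and mt-Nd6 at this time were then not called, and Atp5a1, Atp5b, Cox4i1, Cyc1, Ndufv1, mt-Co3 and mt-Nd1 stood at 0.02 to 0.09. Leaving out +dox replicate 2 or 3 gave 4 rises, and leaving out no dox replicate 3 gave 12. Of the mt- genes 1 rose and 4 fell, with a median of -0.17 (4 and 1, at 0.10, with library totals).

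At 0 h, in growth medium, 1 of 78 nuclear members rose and 24 fell with dox (all genes: 19.1% rose, 18.7% fell; median of the members -0.10), led by Ndufa5, Cox7b and Ndufa1. This count turned with transcript length: in the length-adjusted fit 15 rose and 4 fell (all genes in that fit: 16.3% rose, 22.8% fell), at a median of 0.03, and only 3 fell in both fits. With library totals alone 8 rose and 6 fell (all genes: 30.7% rose, 11.0% fell), at a median of 0.01 against 0.11 for all genes. It also rested on single libraries, with 12 falls without no dox replicate 1, 15 without no dox replicate 2 and 14 without +dox replicate 2. Short genes held 4.946 to 5.028% of counts without and 4.149 to 4.665% with dox at this time. Of the mt- genes 2 rose and 2 fell (median -0.03; 6 and 2 with library totals), and in the length-adjusted fit 7 rose and 1 fell (median 0.16). Without the adjustment there were 5 rises without +dox replicate 1, 1 rise without +dox replicate 3 or no dox replicate 2 or 3, and 4 falls without no dox replicate 3.

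At 48 h 9 of 81 nuclear members rose and 25 fell (all genes: 27.9% rose, 28.7% fell; median of the members -0.07), while 5 mt- genes rose and 1 fell (median 0.16). In the length-adjusted fit 13 nuclear members rose and 38 fell (all genes: 33.1% rose, 30.0% fell), and all 25 falls were among them. With library totals alone 18 rose and 10 fell (all genes: 38.4% rose, 21.2% fell), at a median of 0.07 against 0.15 for all genes. The falls of Atp5a1, Cox7b, Ndufv1, Sdha, Sdhb and Sdhd were then not called. Without +dox replicate 1, where the nuclear members held 1.321% of counts against 1.529 and 1.553% in the other +dox libraries, 24 rose; without no dox replicate 1 or 3, 15 or 16 fell. The mt- rises numbered 3 without no dox replicate 2 or 3.

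At 120 h in whole cultures 16 of 81 nuclear members rose and 19 fell (all genes: 21.4% rose, 23.7% fell; median of the members -0.01), and 3 mt- genes rose with none falling (median 0.25). Length adjustment gave 23 rises and 13 falls (all genes: 21.6% rose, 22.5% fell), and library totals alone 30 and 8 (median 0.19 against 0.20 for all genes), with 7 mt- rises. Rises numbered 10 without no dox replicate 2, +dox replicate 1 or +dox replicate 3, and falls 7, 7 and 10. The number of mt- rises was 11 without no dox replicate 3.

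In the sieved fractions almost no member passed the test in the fit without a replicate block. In the myoblast-enriched fraction none of the nuclear members was called (median 0.09), with 7 at an unadjusted p under 0.05, and 1 mt- gene, mt-Nd3, rose (all genes: 1.82% rose, 2.52% fell). DESeq2 called 1 nuclear member lower. Leaving out no dox replicate 2 gave 2 nuclear and 6 mt- rises, and leaving out no dox replicate 1 gave 1 nuclear fall. In the myotube-enriched fraction no gene was called in either direction (0.0% of all genes), no member had an unadjusted p under 0.05, and DESeq2 called no member. The nuclear median there was 0.32 with and -0.19 without the +dox replicate 1 that stood apart, and 0.08 after length adjustment.

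In the adhesion lines the fit without length adjustment called more nuclear falls than at any time in C2C12 iMyoD1 with dox, an order that turned after length adjustment (24 and 26, against 30 at 24 h and 38 at 48 h). In C2C12 iCdh23 4 of 81 rose and 41 fell with dox, at a median of -0.37, where 31.3% of all genes rose and 32.4% fell. In C2C12 iMcam 3 rose and 38 fell, at a median of -0.29, where 24.2% rose and 24.8% fell. The mt- genes had medians of 0.19 and 0.28, and in each line mt-Nd1 alone was called, lower. Length adjustment left 24 falls in C2C12 iCdh23, all among the 41, beside 18 rises (median -0.03), where 27.3% of all genes fell and 39.0% rose in that fit, so that the falls lie near the background. In C2C12 iMcam it left 26 falls, all among the 38, beside 8 rises (median -0.13; all genes: 22.8% fell, 27.3% rose), and 8 and 2 mt- genes then rose in C2C12 iCdh23 and C2C12 iMcam. With library totals alone 18 rose and 20 fell in C2C12 iCdh23 (all genes: 47.3% rose, 22.1% fell), at a median of -0.03 against 0.33 for all genes. In C2C12 iMcam 5 rose and 19 fell in that fit (all genes: 36.6% rose, 17.4% fell), at -0.10 against 0.21. It called 6 mt- rises in each line (46.2% of the 13), which in C2C12 iCdh23 lies at the background. In both lines the falls of Atp5a1, Cox6b1, Cox7a2, Ndufs1, Ndufv1, Sdhb and Sdhc were then not called, nor those of Cox7a2l in C2C12 iCdh23 and of Uqcrc1 and mt-Nd1 in C2C12 iMcam. Rises in C2C12 iCdh23 numbered 7 without no dox replicate 1 and 2 without +dox replicate 2, and in C2C12 iMcam 1 without no dox replicate 2 or +dox replicate 3. An mt- gene also rose without C2C12 iCdh23 no dox replicate 2 (1) or +dox replicate 1 (2) and without C2C12 iMcam no dox replicate 2 (1). The replicate numbers paired the C2C12 iMcam libraries, and with replicate as a block 4 nuclear members rose and 46 fell, with 1 mt- gene in each direction, where 28.8% of all genes rose and 29.2% fell.

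**Figure D2:**
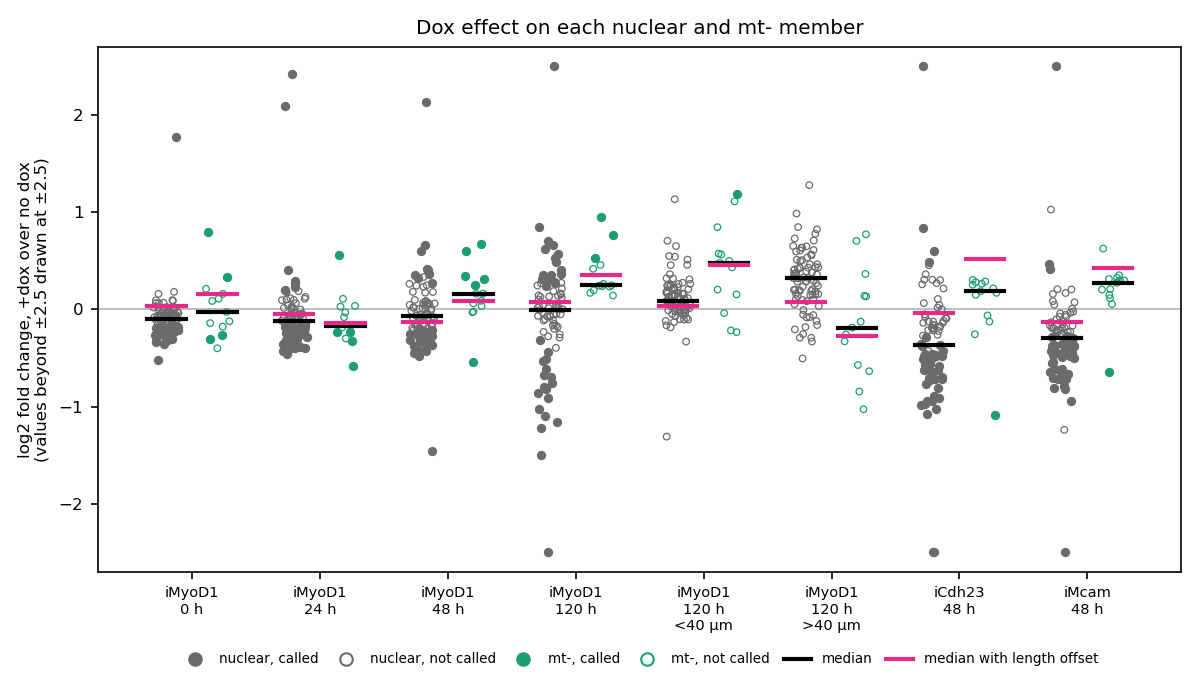
Log2 fold change of each member with dox, from edgeR's fit, for the 8 pairs of groups, with nuclear members in grey and mt- genes in green, filled points for called genes, black bars at the median and pink bars at the median of the length-adjusted fit; values beyond 2.5 in either direction are drawn at that limit. The nuclear medians of C2C12 iCdh23 (-0.37) and C2C12 iMcam (-0.29) lie lowest, and their length-adjusted medians (-0.03 and -0.13) lie nearer to 0.

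In classes of equal transcript length the members lay below other genes in some classes and level with or above them in others. Among members of 1500 to 2500 nt, the median log2 fold change with dox was -0.52 in C2C12 iCdh23 (10 members), where other genes of that length had a median of -0.03, and -0.43 in C2C12 iMcam (10 members), where other genes had 0.004. At 24 h in C2C12 iMyoD1 it was -0.17 (10 members) against -0.01. Among the shortest members, under 500 nt, the order was the other way, with -0.18 (10 members) against -0.51 for other genes in C2C12 iCdh23 and -0.08 (9 members) against -0.35 at 24 h. In the classes that hold most members the medians lay close in C2C12 iCdh23, at -0.26 (29 members) against -0.30 from 500 to 700 nt and -0.18 (19 members) against -0.17 from 700 to 1000 nt. With the median of its class taken from each member, the members' median was 0.03 at 0 h, 0.003 at 24 h, -0.16 at 48 h and 0.07 at 120 h in C2C12 iMyoD1, -0.16 in C2C12 iCdh23 and -0.15 in C2C12 iMcam. These medians describe the members and were not tested.

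**Figure D3:**
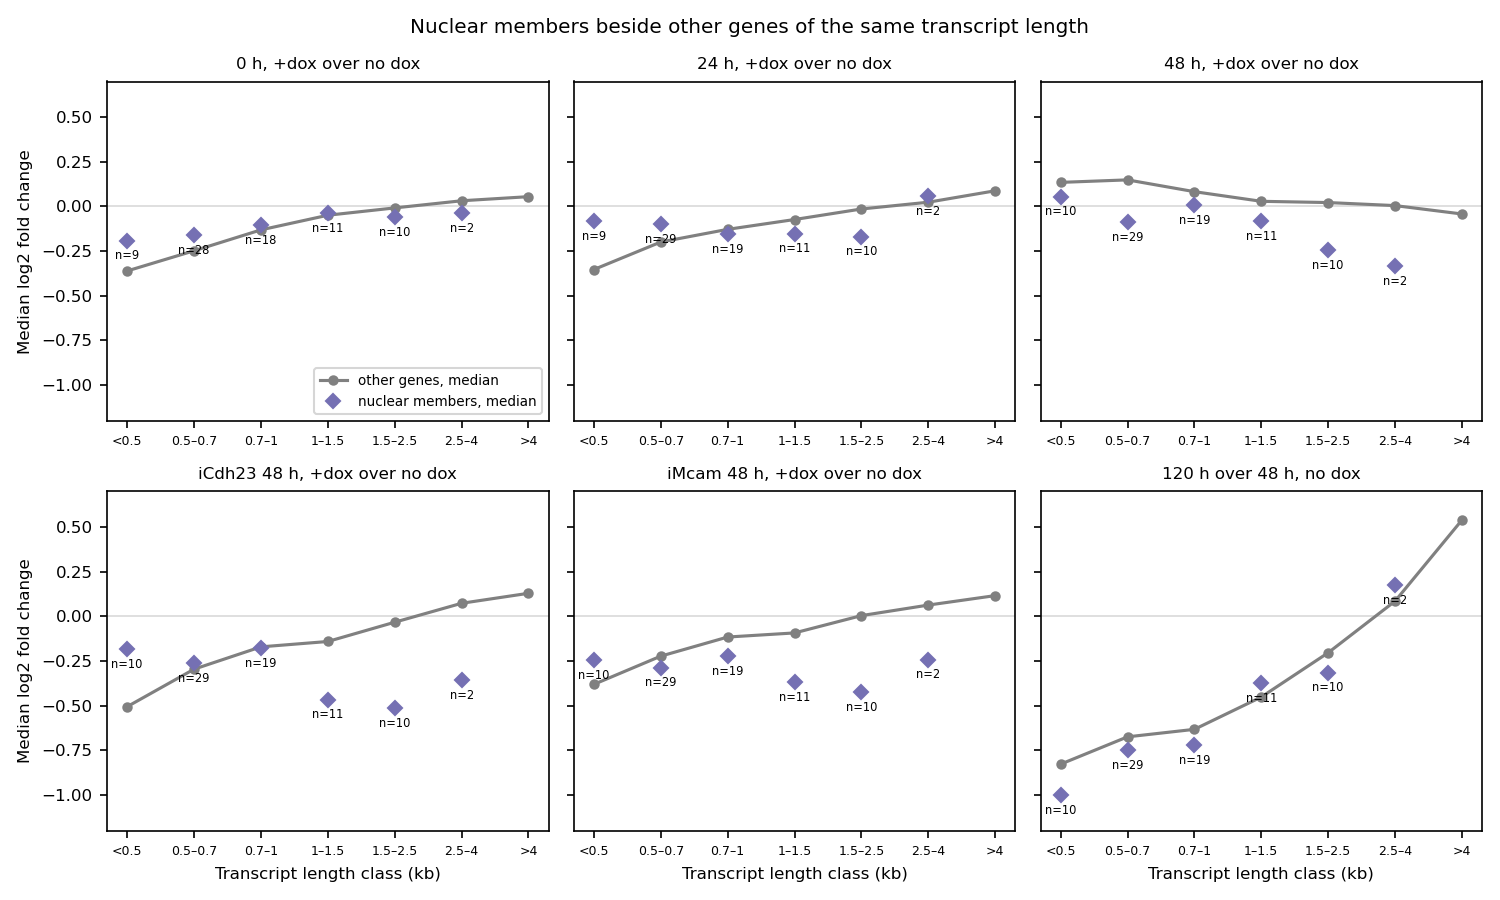
Median log2 fold change in 7 classes of transcript length for other genes (grey line) and nuclear members (purple diamonds, with the number of members) in 6 comparisons. The grey line falls toward short transcripts in C2C12 iCdh23, from -0.03 at 1500 to 2500 nt to -0.51 under 500 nt, while members of 1500 to 2500 nt lie at -0.52.

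The dox effect at 48 h was compared between lines by an interaction term. It was higher in C2C12 iMyoD1 than in C2C12 iCdh23 for 19 nuclear members and lower for none. Of all genes 35.8% differed, 21.6% higher and 14.2% lower, so that the count of higher members lies near the background. By unadjusted p under 0.05, 24 nuclear members differed. The median difference was 0.24 for nuclear and 0.08 for mt- genes, and turned to -0.19 and -0.31 after length adjustment; neither carries a test. Of the 19, Cox6a2, Cox8b, Ndufs3, Cox7a2l and Ndufa10 were called in the length-adjusted fit too, which also called 22 lower. With library totals alone 9 were higher and 3 lower. Against C2C12 iMcam 3 were higher (Cox8b, Ndufa10 and Sdhc), where 6.41% of all genes differed (4.06% higher, 2.35% lower), and Cox8b alone was called after length adjustment (difference 1.46, adjusted p = 0.0424), and 1 with library totals alone. Without the C2C12 iMyoD1 +dox replicate 1 of 48 h these counts were 34 and 17, and the 3 against C2C12 iMcam fell to 0 without C2C12 iMcam +dox replicate 1 or 2, without C2C12 iMyoD1 no dox replicate 1 or 3, or without C2C12 iMyoD1 +dox replicate 2 or 3, and to 1 without C2C12 iMyoD1 no dox replicate 2. Against C2C12 iCdh23, 3 were lower without C2C12 iCdh23 no dox replicate 1, and 1 without C2C12 iCdh23 no dox replicate 3, C2C12 iCdh23 +dox replicate 3 or C2C12 iMyoD1 no dox replicate 3. These are comparisons across 2 tables.

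Between 0 h and 24 h the dox effect was lower at 24 h for 10 of 80 nuclear members (12.5%) and higher for 1 (1.25%), and lower for 4 mt- genes. Of all genes 34.1% differed (13.3% higher, 20.7% lower), so that both nuclear counts lie under the background. Among the lower ones the largest difference was that of Uqcrfs1, the Rieske iron-sulfur protein of complex III, at -0.52 ± 0.09 (SE, adjusted p = 0.000355). The others were Cox6b1, Atp5g1, Ndufa8, Cox5a, Ndufa9, Atp5c1, Ndufa10, Cyc1 and Atp5b, from -0.34 to -0.24, and the mt- genes mt-Co2 (-0.46), mt-Co1 (-0.33), mt-Nd4 (-0.30) and mt-Nd2 (-0.27). All 10 nuclear calls held after length adjustment, which called 17 lower, while of the mt- calls those of mt-Nd4 and mt-Nd2 were lost. With library totals alone 1 nuclear member was lower and 16 were higher, where the median of all genes moved from -0.05 to 0.15. Of all genes 27.0% were higher and 9.97% lower in that fit, so that the members lie under the background both ways. No mt- gene was lower there. With TMM, 22 nuclear members were lower without 24 h no dox replicate 1. The 1 higher call was lost in 10 of the 12 fits that each left out a library. The 4 mt- calls fell to 1 without 0 h +dox replicate 2, 0 h no dox replicate 1 or 3 or 24 h +dox replicate 1 or 2, and to 2 without 0 h no dox replicate 2. Between the fractions no gene's dox effect differed (0.0% of all genes), with 0 nuclear and 1 mt- gene at an unadjusted p under 0.05.

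Among the mt- genes, mt-Nd1 and mt-Nd2 parted with dox. These neighbouring genes, separated by tRNA genes on mitochondrial DNA (M:2751-3707 and M:3914-4951, GRCm38), encode core membrane subunits of complex I. In C2C12 iCdh23 mt-Nd1 was at 3045, 4267 and 4486 CPM without dox and at 1464, 1942 and 2174 CPM with it. All +dox libraries lay below all no dox libraries. The log2 fold change was -1.08 ± 0.19 (SE; adjusted p = 0.00199), and -0.78 after length adjustment, still called. Over the same libraries mt-Nd2 was at 1468, 1887 and 1667 CPM without and 1655, 2050 and 2395 CPM with dox, and the groups overlapped (0.28, adjusted p = 0.156; 0.58 and called after length adjustment).

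At 48 h in C2C12 iMyoD1 mt-Nd1 was at 3909, 3776 and 3612 CPM without and 2677, 2432 and 2755 CPM with dox, a log2 fold change of -0.54 ± 0.08 (adjusted p = 0.000302), again with no overlap. At 24 h it was at 3853, 3683 and 3870 CPM and at 3204, 3205 and 3502 CPM (-0.23 ± 0.06, adjusted p = 0.00476; 0.035 and not called with library totals alone). At 0 h it did not pass the test (-0.14, adjusted p = 0.0816), whereas mt-Nd2 rose from 1412, 1397 and 1335 CPM to 1582, 1942 and 1657 CPM (0.33 ± 0.07, adjusted p = 0.00161). At 120 h mt-Nd1 had a log2 fold change of 0.17 (adjusted p = 0.288) and mt-Nd2 rose from 1659, 1771 and 2107 CPM to 3556, 2891 and 3034 CPM (0.76 ± 0.12, adjusted p = 0.000763). In C2C12 iMcam mt-Nd1 fell by 0.64 on the log2 scale (adjusted p = 0.0321), a call lost after length adjustment (-0.48) and without no dox replicate 2 (-0.69) or 3 (-0.52) or +dox replicate 1 (-0.54) or 2 (-0.51), which left 0 mt- falls in that line.

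The ratio of mt-Nd2 to mt-Nd1 counts within a library, which needs no scaling between libraries, was higher with dox in every comparison but one. It was 0.4087 to 0.4328 without and 0.5499 to 0.6228 with dox at 0 h, 0.4203 to 0.4609 and 0.538 to 0.5734 at 24 h, and 0.3803 to 0.3907 and 0.526 to 0.6347 at 48 h. At 120 h it was 0.4455 to 0.4865 and 0.6828 to 0.7101 in whole cultures. The widest gaps were those of C2C12 iCdh23, with 0.3715 to 0.4821 without and 1.056 to 1.13 with dox, and of C2C12 iMcam, with 0.4269 to 0.5275 and 0.9297 to 1.025. In each of these 6 pairs every +dox library lay above every no dox library. The pair of genes was picked after its values were seen, so the ratio is a description and carries no test. In the myoblast-enriched fraction the ranges were 0.4027 to 0.5108 and 0.7751 to 0.801, and in the myotube-enriched fraction they overlapped (0.4581 to 1.024 and 0.4628 to 0.917). The ratio was higher with dox in the whole cultures of each line, where the drug and the induced gene cannot be told apart. Neither gene has a near-identical nuclear copy that takes reads: the copy of mt-Nd2 on chromosome 2 held 0.007% of its counts.

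**Figure D4:**
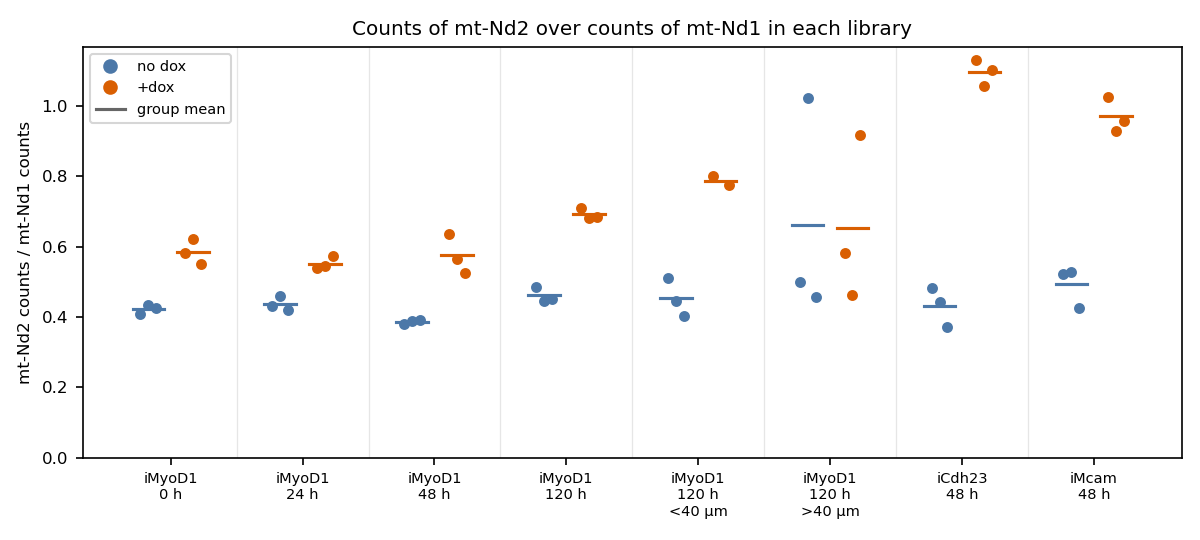
Ratio of mt-Nd2 to mt-Nd1 counts in each library, by group, with no dox in blue and +dox in orange. The +dox libraries of C2C12 iCdh23 and C2C12 iMcam lie at 0.9297 to 1.13, above every no dox library of those lines, and only the myotube-enriched groups overlap.

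mt-Co1 fell with dox early. At 24 h it was at 14160, 12910 and 12730 CPM without and 8607, 8592 and 9848 CPM with dox. The groups did not overlap, and the log2 fold change was -0.58 ± 0.07 (adjusted p = 1.14e-05). At 0 h it was at 11930, 11920 and 11590 CPM and at 8613, 10420 and 9545 CPM (-0.30 ± 0.06, adjusted p = 0.00189), also without overlap, and both calls held after length adjustment. At 48 h mt-Co1 was at 10530, 10810 and 10080 CPM without and at 11510, 9814 and 9908 CPM with dox, and at 120 h at 15170, 18380 and 21640 CPM and at 24160, 20730 and 20880 CPM, with overlap at both times.

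At 48 h mt-Cytb, the cytochrome b of complex III, rose from 4516, 4404 and 4077 CPM to 5834, 5075 and 5389 CPM without overlap (0.31, adjusted p = 0.0109), a call lost without no dox replicate 3 (0.27). mt-Atp6, the proton-channel subunit a of ATP synthase, rose by 0.35 (adjusted p = 0.00407), a call lost in one fit of all groups (0.35). mt-Nd6, the 1 mt- gene coded on the other strand, rose from 610.4, 605.2 and 535.3 CPM to 828.6, 974.9 and 1020 CPM (0.67 ± 0.09, adjusted p = 0.000102). It overlaps mt-Nd5 on the opposite strand. At 120 h mt-Nd5 rose from 3579, 4274 and 4958 CPM to 6948, 5625 and 6079 CPM (0.53, adjusted p = 0.0093), and mt-Co3 from 1556, 1876 and 2121 CPM to 3903, 3666 and 3229 CPM (0.95 ± 0.13, adjusted p = 0.000319).

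Several mt- genes share nearly all of their 31-base words with an annotated pseudogene on chromosome 1, so their estimated counts are uncertain. Counts given to that copy amounted to 89.182% of those of mt-Co3, 123.558% of mt-Co2, 64.35% of mt-Atp6, 161.338% of mt-Nd4l and 356.47% of mt-Nd3. Summed with its copy, mt-Co3 at 120 h still rose (0.66). mt-Nd3 in the myoblast-enriched fraction was at 129.6, 133.2 and 113.5 CPM without and at 275.2 and 293 CPM with dox (1.19 ± 0.13, adjusted p = 0.0118), and the call was lost on summing with the copy (0.82) and without no dox replicate 3 (1.12), +dox replicate 2 (1.22) or +dox replicate 3 (1.15). Its calls at 0 h (0.80) and 48 h (0.60) came with overlapping groups. They were lost under DESeq2. Leaving out +dox replicate 3 (0.48), no dox replicate 2 (0.69) or no dox replicate 3 (0.62) ended the call at 0 h, and leaving out no dox replicate 2 (0.47) or 3 (0.47) ended that at 48 h. Its call at 24 h (0.56, adjusted p = 0.0049) held without each library in turn and was lost in one fit of all groups (0.51).

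Complex I takes electrons from NADH. Of its 35 nuclear members, 4 rose and 9 fell with dox at 24 h, 4 and 7 at 48 h, 6 and 9 at 120 h, 2 and 12 in C2C12 iCdh23 and 1 and 11 in C2C12 iMcam, and 0 and 10 at 0 h. Of all genes 31.7% fell at 24 h, 28.7% at 48 h, 23.7% at 120 h, 32.4% in C2C12 iCdh23, 24.8% in C2C12 iMcam and 18.7% at 0 h, and several counts of this and of the other complexes lie near these shares. Ndufs1, the largest iron-sulfur subunit, was at 192.6, 198.2 and 204.2 CPM without and 147.4, 149.4 and 134 CPM with dox at 48 h in C2C12 iMyoD1. No +dox library reached the no dox range, and the log2 fold change was -0.48 ± 0.06 (adjusted p = 7.55e-05). It also fell in C2C12 iCdh23, from 136.1, 184.7 and 196.6 CPM to 103.4, 121.8 and 111.6 CPM (-0.62, a call lost in one fit of all groups), and was higher at 120 h (0.32), a call lost without no dox replicate 2 (0.32), +dox replicate 1 (0.27) or +dox replicate 3 (0.33).

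Ndufv1, the flavoprotein subunit that binds NADH, was called lower in C2C12 iCdh23, from 125.6, 115.3 and 124.4 CPM to 83.92, 91.51 and 81.25 CPM (-0.51, adjusted p = 0.00132), and in C2C12 iMcam, from 110.6, 106.7 and 123.1 CPM to 84.37, 85.55 and 85.43 CPM (-0.38, adjusted p = 0.00664). The groups did not overlap in either line, and both calls held after length adjustment but not in one fit of all groups (-0.50 and -0.40). At 24 h in C2C12 iMyoD1 it fell by 0.23 on the log2 scale. Ndufa4, named like a complex I gene but known as a subunit of complex IV and counted there, fell at 24 h from 175, 195.2 and 208.6 CPM to 149.4, 147.5 and 141.5 CPM (-0.43, adjusted p = 0.000159), in C2C12 iCdh23 from 106.5, 100.3 and 82.9 CPM to 54.6, 68.51 and 54.68 CPM (-0.71, adjusted p = 0.00203), and in C2C12 iMcam (-0.61, adjusted p = 0.00638). All of these calls held after length adjustment, and that in C2C12 iMcam was lost in one fit of all groups (-0.63).

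Ndufb2, an accessory subunit of the membrane arm, went the other way. In C2C12 iCdh23 it was at 37.16, 34.08 and 27.58 CPM without and 54.1, 64.47 and 58.17 CPM with dox, and at 120 h in C2C12 iMyoD1 at 19.89, 25.56 and 29.12 CPM and 46.37, 45.26 and 44.13 CPM. Every +dox library lay above every no dox library in both. The log2 fold changes were 0.84 ± 0.12 (adjusted p = 0.000767) and 0.85 ± 0.14 (adjusted p = 0.00125), and it was called higher at 24 h (0.28) and 48 h (0.42) too. In C2C12 iMcam its rise (0.42, adjusted p = 0.017) was lost without no dox replicate 2 (0.33) or +dox replicate 3 (0.36). Ndufb2 overlaps Braf on the other strand, so its counts carry that uncertainty. Ndufa5, a peripheral-arm subunit, fell at 0 h from 58.14, 52.08 and 52.64 CPM to 33.08, 38.88 and 41.12 CPM (-0.52 ± 0.08, adjusted p = 0.000213; -0.27 and called after length adjustment), the largest fall at that time. It fell by 0.94 in C2C12 iCdh23 and by 0.64 in C2C12 iMcam on the log2 scale. Ndufa1 fell at 0 h (-0.34), but stood at 0.03 after length adjustment. Its rise in C2C12 iCdh23 (0.61) was lost in 5 of the 6 fits that each left out a library, and held only without no dox replicate 1. Ndufa2, an accessory subunit, fell at 120 h from 69.81, 58.54 and 40.12 CPM to 17.79, 30.39 and 24.91 CPM (-1.22 ± 0.23, adjusted p = 0.00248). The +dox libraries lay below the no dox libraries, which themselves spread widely. Ndufa13 rose at 24 h (0.29, adjusted p = 0.0244), a call lost without +dox replicate 2 (0.26) or 3 (0.30) or no dox replicate 2 (0.28).

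Complex II, succinate dehydrogenase, joins the citric acid cycle to the chain. Of its 4 members 1 fell at 24 h, 3 at 48 h, and 3 in each adhesion line, and at 120 h 2 rose and 1 fell. Sdhd, a membrane anchor, fell in C2C12 iCdh23 from 99.4, 122.5 and 86.54 CPM to 53.56, 64.24 and 62.88 CPM (-0.77 ± 0.14, adjusted p = 0.00189), and in C2C12 iMcam from 93.76, 100.5 and 105.2 CPM to 66.01, 67.46 and 72.58 CPM (-0.50 ± 0.08, adjusted p = 0.00223). All +dox libraries were below the no dox range, also at 24 h in C2C12 iMyoD1 (-0.28 ± 0.06, adjusted p = 0.00247), and the calls held after length adjustment. Sdha, the flavoprotein subunit, was at 292.3, 292.4 and 307.2 CPM without and 384.5, 387.8 and 388.2 CPM with dox at 120 h (0.37, adjusted p = 0.00318). Its fall at 48 h (-0.19) was lost without no dox replicate 1 (-0.19) or 3 (-0.17) or +dox replicate 2 (-0.18). Sdhc, the other anchor, fell in C2C12 iMcam from 124.8, 129.6 and 137.4 CPM to 98.96, 96 and 100.9 CPM (-0.37; -0.26 and called after length adjustment). The calls of Sdhb, the iron-sulfur subunit, were not kept after length adjustment at 120 h (-0.31 without it, -0.19 with it), in C2C12 iCdh23 (-0.37 and -0.08) or in C2C12 iMcam (-0.38 and -0.26).

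Complex III passes electrons from ubiquinol to cytochrome c. Of its 9 nuclear members 4 fell and none rose at 24 h and at 48 h, 5 fell in C2C12 iCdh23 and 6 in C2C12 iMcam, and 3 rose and 2 fell at 120 h. Uqcrfs1 was at 97.46, 94.2 and 110 CPM without and 74.53, 76.99 and 83.42 CPM with dox at 24 h, and at 92.09, 115.1 and 107.4 CPM and 59.1, 69.53 and 63.31 CPM in C2C12 iCdh23. All +dox libraries of both pairs lay below the no dox libraries, with log2 fold changes of -0.39 ± 0.07 (adjusted p = 0.000359) and -0.71 (adjusted p = 0.000737). At 120 h the order was reversed: 98.66, 92.56 and 96.31 CPM without and 153.6, 149.9 and 157 CPM with dox (0.67 ± 0.08, adjusted p = 0.000147). Cyc1, the cytochrome c1, fell in C2C12 iMcam from 132, 153.3 and 176.6 CPM to 88.34, 94.42 and 105.5 CPM (-0.64, adjusted p = 0.0041) and in C2C12 iCdh23 by 0.62 on the log2 scale (adjusted p = 0.00143). The calls of Uqcrfs1 and Cyc1 held after length adjustment. Uqcrq, a small subunit of complex III, had the largest fall of its complex at 120 h, from 61.79, 51.44 and 41.45 CPM to 17.23, 19.09 and 18.85 CPM (-1.5 ± 0.15, adjusted p = 6.62e-05; -1.44 after length adjustment).

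Complex IV, cytochrome c oxidase, hands electrons to oxygen. Of its nuclear members tested, 2 rose and 9 fell of 15 at 24 h, 4 rose and 4 fell of 16 at 48 h, 1 rose and 10 fell in C2C12 iCdh23 and 1 rose and 8 fell in C2C12 iMcam. Cox7b, a small subunit, fell in C2C12 iMcam from 96.68, 78.64 and 106.5 CPM to 56.8, 48.31 and 51.26 CPM (-0.81 ± 0.12, adjusted p = 0.0018) and at 24 h from 194.2, 245.7 and 255.5 CPM to 168.1, 177.7 and 169.5 CPM (-0.46, adjusted p = 0.000788). It also fell at 0 h (-0.36) and in C2C12 iCdh23 (-0.95, adjusted p = 0.000648). No pair overlapped, and all 4 calls held after length adjustment; at 48 h its fall (-0.30) was lost without no dox replicate 2 (-0.28). Of the widely expressed isoforms, Cox4i1 fell by 0.25 and Cox6b1 by 0.40 at 24 h on the log2 scale, while Cox6a1 was called in none of the dox comparisons. Cox7a2l, known as a supercomplex factor, fell at 24 h (-0.29) and rose at 48 h (0.36, adjusted p = 0.00437), from 210.1, 197.9 and 190.5 CPM to 223.7, 278.3 and 272 CPM. Cox8a rose at 48 h from 250.3, 230 and 234.4 CPM to 264.9, 337.3 and 352.7 CPM (0.40, adjusted p = 0.00535) and at 120 h from 72.13, 83.29 and 91.51 CPM to 116.1, 123 and 110.3 CPM (0.49, adjusted p = 0.00461). The +dox libraries lay above the no dox libraries at both times.

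Complex V makes ATP. Of 17 members 1 rose and 11 fell at 24 h (31.7% of all genes fell), 1 and 7 at 48 h (28.7%), 1 and 11 in C2C12 iCdh23 (32.4%), 1 and 10 in C2C12 iMcam (24.8%), and 3 and 3 at 120 h (23.7%). Atp5g1, Atp5g2 and Atp5g3 encode the same mature c subunit of the rotor. Atp5g1 (11:96068852-96075670, minus strand) was at 101.2, 102.3 and 110.3 CPM without and 47.43, 53.71 and 48.19 CPM with dox in C2C12 iCdh23, and at 93.88, 94.49 and 112 CPM and 58.27, 52.33 and 55.03 CPM in C2C12 iMcam. No +dox library reached the no dox range. The log2 fold changes were -1.07 ± 0.08 (adjusted p = 3.49e-05) and -0.82 (adjusted p = 0.000651). At 24 h Atp5g1 fell from 168.3, 184.4 and 196.6 CPM to 133.4, 140.4 and 141.1 CPM (-0.43, adjusted p = 0.000104), and at 120 h from 280.9, 238.1 and 175.4 CPM to 88.78, 126.4 and 112 CPM (-1.10, adjusted p = 0.00103). These calls held after length adjustment. Atp5g3 fell in C2C12 iMcam from 238.2, 237.9 and 310.9 CPM to 136.9, 126.8 and 134 CPM (-0.95 ± 0.12, adjusted p = 0.000831) and in C2C12 iCdh23 by 1.03 on the log2 scale (adjusted p = 0.00015), and Atp5g2 fell in C2C12 iCdh23 (-0.48; -0.14 after length adjustment).

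Atp5b was at 1309, 1413 and 1469 CPM without and 756.5, 834 and 802.9 CPM with dox in C2C12 iCdh23, and at 1150, 1199 and 1554 CPM and 747.1, 749.9 and 822.3 CPM in C2C12 iMcam. The groups did not overlap, and the log2 fold changes were -0.81 ± 0.09 (adjusted p = 0.000204) and -0.71 ± 0.13 (adjusted p = 0.00374), both called after length adjustment (-0.59 and -0.64). At 120 h it was at 1573, 1619 and 1525 CPM without and 1887, 1860 and 1863 CPM with dox (0.24, adjusted p = 0.0295), a call lost without no dox replicate 2 (0.25) or +dox replicate 1 (0.23), 2 (0.23) or 3 (0.23). Atp5a1, the alpha subunit, rose at 120 h from 719.9, 631.7 and 533.7 CPM to 937.2, 1003 and 993.3 CPM (0.63, adjusted p = 0.0017) and fell in C2C12 iCdh23 (-0.50) from 811.4, 975.9 and 746.7 CPM to 571.7, 632.3 and 586.6 CPM. Atp5s, also called coupling factor B, is expressed at a low level and rose at 48 h from 4.931, 6.106 and 5.579 CPM to 8.224, 8.248 and 10.32 CPM (0.66 ± 0.14, adjusted p = 0.00267). Its rise at 24 h (0.41) was lost without +dox replicate 3 (0.34).

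The isoform pairs of complex IV, with Ndufa4 and Ndufa4l2 counted among them, held the largest change with dox in each comparison of whole cultures. Muscle uses Cox6a2, Cox7a1 and Cox8b in place of the widely expressed Cox6a1, Cox7a2 and Cox8a. The start regions of Cox8b and of its partner Cox8a are shown because the dox effect on Cox8b differed between lines. Each line gives 300 bases of RefSeq's GRCm38.p6, from 250 bases before to 50 after the start, 5′ to 3′ on the gene's strand, for Cox8b chr7:140900397-140900696 (minus strand) and for Cox8a chr19:7217567-7217866 (minus strand). Capitals mark, in Cox8b, CAGCTG, the E-box that MyoD1 is known to bind, and in Cox8a, CTTCCGG, the ETS-type motif CCGGAAG read on the other strand.
Cox8b: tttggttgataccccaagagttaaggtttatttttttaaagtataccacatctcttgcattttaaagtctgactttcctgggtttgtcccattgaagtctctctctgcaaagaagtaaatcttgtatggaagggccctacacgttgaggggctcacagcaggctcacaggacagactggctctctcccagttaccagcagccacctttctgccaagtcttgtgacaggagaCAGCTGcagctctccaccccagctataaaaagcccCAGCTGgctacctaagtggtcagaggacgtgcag
Cox8a: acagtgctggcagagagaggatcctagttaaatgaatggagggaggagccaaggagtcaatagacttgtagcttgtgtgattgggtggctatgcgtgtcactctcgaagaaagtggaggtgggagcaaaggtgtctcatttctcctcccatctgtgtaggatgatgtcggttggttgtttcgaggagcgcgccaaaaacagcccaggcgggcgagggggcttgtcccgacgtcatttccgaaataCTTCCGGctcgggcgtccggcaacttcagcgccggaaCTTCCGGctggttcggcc

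CAGCTG stands at 2 places in the Cox8b window and CCGGAAG at 2 places in the Cox8a window, and neither window holds the motif of the other. Of 27025 mouse promoters of this length, 16.1% hold CAGCTG and 9.12% hold CCGGAAG on either strand. Promoters of 66 nuclear members were matched by symbol, and of these 6 (9.09%) hold CAGCTG, 15 (22.7%) CCGGAAG, 10 (15.2%) the NRF1-type core GCATGCGC (2.8% of all promoters) and 8 (12.1%) the ERR-type AAGGTCA (4.66% of all). A match says only that the letters are there. The windows of Cox7a1 and Cox7a2 hold none of the 4 motifs.

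Cox6a2 (7:128205435-128206387, minus strand) was lower with dox at 48 h, at 120 h in whole cultures and in both adhesion lines, but was not called lower at 24 h or in the fractions. At 24 h it was at 30.94, 37.95 and 35.07 CPM without and 37.17, 39.7 and 36.99 CPM with dox, with overlap (0.10, adjusted p = 0.268). At 48 h it was at 67.54, 77.07 and 58.29 CPM and at 21.84, 27.55 and 25.27 CPM. At 120 h it was at 127.1, 87.36 and 57.96 CPM and at 9.289, 12.49 and 9.973 CPM. The +dox libraries of the latter times lay well below all no dox libraries, with log2 fold changes of -1.46 ± 0.11 (adjusted p = 1.80e-06) and -3.11 ± 0.27 (adjusted p = 2.51e-05). In C2C12 iCdh23 it was at 7.973, 11.41 and 52.38 CPM without and 0.2503, 0.1655 and 0.428 CPM with dox (-6.40 ± 0.96, adjusted p = 0.000804), and in C2C12 iMcam at 4.951, 7.253 and 13.12 CPM and 0.5386, 1.121 and 2.026 CPM (-2.73 ± 0.51, adjusted p = 0.00382). All calls held after length adjustment. As a share of Cox6a1 and Cox6a2 together, in TPM, it was 57.68 ± 7.90% (SD, n = 3) without and 14.2 ± 1.02% (n = 3) with dox at 120 h. The gene on its other strand, Itgad, reached a highest group mean of 0.1229 CPM, in the myotube-enriched fraction without dox. In the fractions Cox6a2 was not called. It was at means of 70.58 CPM without and 28.29 CPM with dox in the myoblast-enriched (-1.31, adjusted p = 0.149) and of 156.1 and 164.5 CPM in the myotube-enriched fraction (0.10, adjusted p = 0.999), where it was highest.

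Cox8b was at 12.59, 13.82 and 10.31 CPM without and 15.82, 22.08 and 18.29 CPM with dox at 48 h in C2C12 iMyoD1, higher in all +dox libraries (0.60 ± 0.14, adjusted p = 0.00358). In C2C12 iCdh23 it went from 1.152, 2.476 and 5.377 CPM to 0.3754, 0.2978 and 0.535 CPM, lower in all +dox libraries (-2.89 ± 0.60, adjusted p = 0.0039). The difference of these effects was 3.48 ± 0.60 (adjusted p = 0.000675). In C2C12 iMcam the log2 fold change was -1.24 (adjusted p = 0.0567), and the difference from C2C12 iMyoD1 was 1.86 (adjusted p = 0.0291). For Cox6a2 the effect was also higher, that is less negative, in C2C12 iMyoD1 than in C2C12 iCdh23, with a difference of 4.92 ± 1.00 (adjusted p = 0.00207). At 120 h Cox8b was at 15.75, 14.52 and 10.61 CPM without and 5.336, 10.34 and 8.681 CPM with dox (-0.76, adjusted p = 0.0347), a call lost after length adjustment and without no dox replicate 1 (-0.65) or 2 (-0.72) or +dox replicate 1 (-0.53) or 3 (-0.82).

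Cox7a1 rose with dox at low levels at 0 h, 24 h and 120 h in whole cultures of C2C12 iMyoD1. It was not called higher with dox in the adhesion lines or in the fractions. It was at 0.3585, 0.5498 and 0.3493 CPM without and 1.722, 1.21 and 1.397 CPM with dox at 0 h (1.78 ± 0.36, adjusted p = 0.0014), at 0.2843, 0.1064 and 0.1039 CPM and 0.6185, 0.7769 and 0.742 CPM at 24 h (2.10 ± 0.45, adjusted p = 0.00157), and at 0.7385, 1.131 and 0.809 CPM and 6.562, 5.366 and 6.783 CPM at 120 h (2.78 ± 0.28, adjusted p = 6.15e-05). No pair overlapped. At 48 h the levels were alike in size, at 2.97, 2.946 and 3.169 CPM and 2.862, 2.944 and 4.031 CPM (0.08, adjusted p = 0.762). Its share of Cox7a1 and Cox7a2 together, in TPM, was 1.455 ± 0.196% (SD, n = 3) without and 8.516 ± 1.025% (n = 3) with dox at 120 h. The muscle isoforms did not move together at 120 h: Cox7a1 rose where Cox6a2 fell.

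Ndufa4l2, a paralog of Ndufa4, was low without dox and rose with it in all dox-treated lines. It went from 0.3249, 0.4256 and 0.3116 CPM to 1.884, 2.331 and 1.675 CPM at 24 h (2.42 ± 0.29, adjusted p = 1.44e-05), from 0.2376, 1.018 and 0.7141 CPM to 2.285, 2.702 and 4.08 CPM at 48 h (2.13 ± 0.40, adjusted p = 0.00102), from 0.4873, 0.2427 and 1.387 CPM to 7.299, 6.718 and 4.958 CPM in C2C12 iCdh23 (3.13 ± 0.51, adjusted p = 0.00117), and from 0.4175, 0.06715 and 0.1575 CPM to 4.358, 5.299 and 3.178 CPM in C2C12 iMcam (4.30 ± 0.48, adjusted p = 0.000524). The groups of each of these pairs stood apart, while at 120 h the log2 fold change was 0.28 (adjusted p = 0.71), and at 0 h its counts were too low for the test. Ndufa4l2 (10:127514967-127517154, plus strand) overlaps Shmt2 on the other strand, at group means of 64.89 to 491.4 CPM, so its low counts carry that uncertainty.

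**Figure D5:**
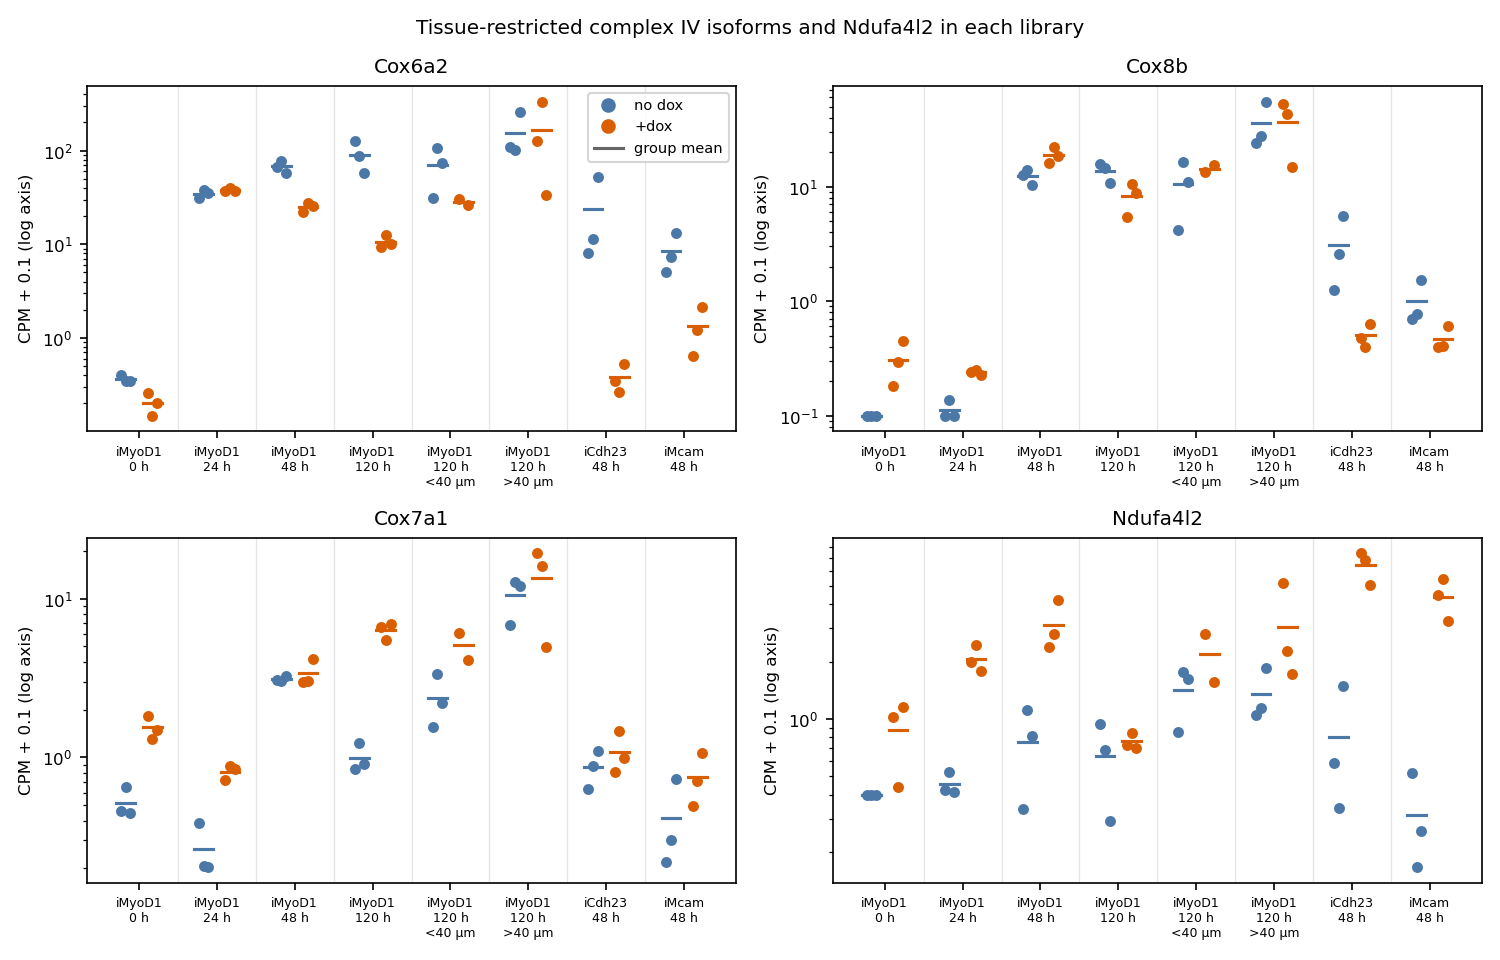
CPM plus 0.1, on a log axis, of Cox6a2, Cox8b, Cox7a1 and Ndufa4l2 in each library, by group, with no dox in blue and +dox in orange. Cox6a2 of C2C12 iCdh23 lies at 7.973 to 52.38 CPM without and 0.1655 to 0.428 CPM with dox, and Ndufa4l2 of that line at 0.2427 to 1.387 and 4.958 to 7.299 CPM.

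Without dox the members also changed during differentiation. From 0 h to 24 h 44 of 78 nuclear members rose and 7 fell (all genes: 37.3% rose, 37.0% fell; median 0.23), and 8 mt- genes rose with none falling. By complex, 22 of 35 rose in complex I, 2 of 4 in II, 6 of 9 in III, 8 in IV and 6 of 17 in V. Uqcrq was at 92.14, 89.82 and 86.98 CPM at 0 h and 275.4, 348.5 and 366.2 CPM at 24 h (1.92 ± 0.09, adjusted p = 3.19e-10), and Cox6a2, near 0 in growth medium, had a log2 fold change of 7.04 ± 0.18 (adjusted p = 6.03e-13). All 24 h libraries lay above the 0 h libraries for both. Ndufa2 rose too (0.87, adjusted p = 3.57e-06), and Atp5g2 (-0.45), Ndufb8 (-0.35) and Cox8a (-0.32) fell most. Length adjustment gave 34 rises, 33 of them the same genes, and 22 falls (all genes in that fit: 43.3% rose, 33.2% fell), and library totals alone 34 and 14 (30.0% and 42.9%). The falls numbered 4 without 0 h replicate 1 or 2 and 12 without 24 h replicate 3.

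From 24 h to 48 h, across 2 tables, 57 of 81 nuclear members rose and 8 fell (all genes: 38.4% rose, 38.4% fell; median 0.48), while 1 mt- gene rose and 7 fell (median -0.20). The muscle isoform Cox8b went from at most 0.035 CPM to 12.59, 13.82 and 10.31 CPM, and Cox7a1 rose as well (4.21). Atp5g3 was at 198.8, 219.9 and 230.9 CPM at 24 h and 569.3, 521.5 and 539.5 CPM at 48 h (1.33, adjusted p = 8.12e-10). The 48 h libraries stood clear of the 24 h libraries for these genes. Uqcr11 rose (1.08, adjusted p = 8.79e-07), whereas Uqcrq fell (-0.63). mt-Atp8 fell from 646.1, 946.7 and 828.7 CPM to 407.6, 354.6 and 279.8 CPM (-1.21, adjusted p = 3.14e-06), and the 1 mt- gene that rose, mt-Nd3 (0.93), stood at -0.04 when summed with its nuclear copy. Length adjustment gave 45 rises, all among the 57, 20 falls (all genes: 29.6% rose, 51.6% fell), and 1 rise and 12 falls among the mt- genes. Library totals alone gave 51 and 13 (all genes: 35.0% rose, 42.4% fell). Nuclear falls numbered 13 without 24 h replicate 1.

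From 48 h to 120 h in whole cultures, within a table, 64 of 81 nuclear members fell and 1 rose (all genes: 33.0% rose, 34.1% fell; median -0.72), while 6 mt- genes rose and 4 fell (median 0.44; 10 rose and 1 fell in the length-adjusted fit, at a median of 1.31). The nuclear fall moved with transcript length. Other genes under 500 nt had a median of -0.83 and those over 4000 nt one of 0.54, and after length adjustment 36 nuclear members rose and 13 fell (all genes: 39.2% rose, 26.1% fell), at a median of 0.21, with 21 called in opposite directions by both fits. The 13 falls were called in both. Among those, Cox6a1 went from 268.9, 233.1 and 253.2 CPM to 56.42, 53.16 and 49.39 CPM (-2.23 ± 0.09, adjusted p = 3.04e-07; -1.21 after length adjustment), and Uqcr11 from 150.5, 138.6 and 153.6 CPM to 49.97, 32.75 and 16.46 CPM (-2.15 ± 0.31, adjusted p = 0.00025; -0.92). For both the times stood far apart. The single rise was lost without 48 h replicate 1 or 2 or 120 h replicate 2, and numbered 2 without 120 h replicate 1 and 4 without 120 h replicate 3.

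Among the mt- genes mt-Nd5 rose from 1579, 1622 and 1484 CPM to 3579, 4274 and 4958 CPM (1.47, adjusted p = 1.34e-05), mt-Nd4 by 1.13 (adjusted p = 0.000153) and mt-Co1 by 0.83 (adjusted p = 0.000604) on the log2 scale. mt-Nd6 was far lower in the whole cultures of 120 h than in any other library, at 12.26 to 20.79 CPM (6 libraries, with and without dox) against 399.2 to 2386 CPM in the other 41 (median 584.6). The log2 fold change from 48 h without dox was -5.25 ± 0.17 (adjusted p = 1.49e-07), and -4.17 after length adjustment. The fractions sieved from cultures of the same age held 584.6 to 2386 CPM of it. Beside this, genes under 700 nt held 2.561 to 2.79% of counts in the whole cultures of 120 h, and 2.484 to 3.23% in C2C12 iCdh23 with dox. The low-expressed genes mt-Ts1, Tssk6 and Pdzd9, each on the other strand from a member it overlaps, had 0 counts in all 6 whole-culture libraries of 120 h and group means of 0.2142 CPM or more in every other group, while Gm42890, another such gene, was higher there (4.538 and 5.258 CPM, against at most 1.877 CPM in other groups). They were picked out after their values were seen. The part of library preparation and of the handling of strand in the low mt-Nd6 was not tested. The mt- falls numbered 2 without 48 h replicate 3 or 120 h replicate 2.

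Between the sieved fractions without dox, all 13 mt- genes were higher in the myotube-enriched one, by 0.63 or more on the log2 scale, with a median of 0.98. There 74 of 81 nuclear members were higher, with a median of 0.25, and 6973 of all 14023 genes tested. The contractile genes described below summed to 8603 to 13540 CPM in the myoblast-enriched and 19230 to 31780 CPM in the myotube-enriched fraction. The proliferation genes summed to 547.4 to 1417 and 229.1 to 766.9 CPM. The part of these differences in the members' levels was not tested. Few calls were made at all (all genes: 0.578% higher, 0.0143% lower), and in the fit without pairs none of the nuclear members and 1 mt- gene passed, with 10 and 11 at an unadjusted p under 0.05. DESeq2 called 2 and 6 higher. mt-Nd4l was at 110.1, 142.1 and 99.54 CPM in the myoblast-enriched and 295.5, 446 and 267.6 CPM in the myotube-enriched fraction (1.55 ± 0.25, adjusted p = 0.0434), a call lost after length adjustment (1.45), on summing with its nuclear copy (1.44), in one fit of all groups, and without any single library (1.28 to 1.70) but myotube-enriched replicate 1. Leaving out myotube-enriched replicate 1 gave 1 nuclear call. The replicate numbers paired these libraries, and with replicate as a block 3 nuclear members (Cox7a1, Cox8b and Ndufs4) and 7 mt- genes were higher, where 3.17% of all genes were higher and 1.65% lower. Cox7a1 was at 1.463, 3.239 and 2.086 CPM in the myoblast-enriched and 6.682, 12.68 and 11.9 CPM in the myotube-enriched fraction, with no overlap (2.22, adjusted p = 0.0526; 2.24, adjusted p = 0.0077 with the block). As a share of Cox7a1 and Cox7a2 in TPM that was 3.473% and 12.57% (means, n = 3).

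Genes that serve the chain without being part of it moved as follows at 24 h with dox. Of 24 regulators of mitochondrial genes tested, 2 rose and 15 fell. Twnk, the mitochondrial DNA helicase, fell most, from a mean of 63.56 to 28.2 CPM (-1.2, adjusted p = 1.67e-08), and Esrrb, an orphan nuclear receptor, rose most (1.36). Tfam, which packages mitochondrial DNA and starts its transcription, fell by 0.69 on the log2 scale. Of 49 assembly factors 2 rose and 23 fell, led by the complex I factor Ndufaf4, from a mean of 49.95 to 20.73 CPM (-1.29). Of all genes 31.1% rose and 31.7% fell at this time. After length adjustment these lists gave 2 and 16, and 7 and 22.

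In C2C12 iCdh23, where 31.3% of all genes rose and 32.4% fell, 3 of 24 regulators rose and 13 fell (3 and 10 after length adjustment), and 6 of 49 assembly factors rose and 19 fell (13 and 10). In C2C12 iMcam, where 24.2% rose and 24.8% fell, 1 of 22 regulators rose and 7 fell (2 and 4), and 2 of 49 assembly factors rose and 8 fell (6 and 5). Somatic cytochrome c, Cycs, the carrier between complexes III and IV, fell from means of 172.0 to 78.06 CPM in C2C12 iCdh23 (-1.14) and of 140.3 to 61.11 CPM in C2C12 iMcam (-1.16). Of 13 citric acid cycle genes 1 rose and 8 fell at 24 h, 1 and 7 in C2C12 iCdh23 (2 and 5 after length adjustment), and 5 and 2 at 120 h, where 21.4% of all genes rose and 23.7% fell, the last led by Suclg2 (1.39).

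A list of 18 ATF4 stress genes holds Atf4, the transcription factor of the integrated stress response, and genes linked to it. Most fell with dox in whole cultures of C2C12 iMyoD1: 13 of 17 at 0 h, 17 at 24 h, 17 at 48 h and 18 of 18 at 120 h (median -2.78). None rose at these times, and 11 fell in the myoblast-enriched fraction (14 after length adjustment). In the myotube-enriched fraction none was called (median -0.18). The shares of all genes that fell were 18.7%, 31.7%, 28.7% and 23.7% at these times, and 2.52% in the myoblast-enriched fraction. In C2C12 iCdh23 10 fell and none rose (32.4% of all genes fell), and in C2C12 iMcam 9 fell and 2 rose (24.8%). Fgf21, a secreted factor, fell from a mean of 68.02 to 0.2332 CPM in C2C12 iCdh23 (-8.11). The no dox libraries of that line differed widely on this list, at 994.3 to 4532 CPM in sum. In differentiation without dox all 18 rose from 0 h to 24 h (median 2.72), where 37.3% of all genes rose. From 24 h to 48 h, across 2 tables, 1 rose and 16 fell (median -1.43), where 38.4% of all genes rose and 38.4% fell. From 48 h to 120 h 16 rose and 1 fell (median 0.87), where 33.0% rose and 34.1% fell.

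Contractile and proliferation genes fell with dox at 48 h, where 28.7% of all genes fell in C2C12 iMyoD1, 32.4% in C2C12 iCdh23 and 24.8% in C2C12 iMcam. In C2C12 iMyoD1 all 12 contractile genes fell, and their summed level went from 18440 to 20260 CPM without to 7650 to 7828 CPM with dox. In C2C12 iCdh23 all 12 fell, from 7286 to 13390 CPM to 53.93 to 184.5 CPM, and in C2C12 iMcam all 12, from 5160 to 12910 CPM to 677.5 to 2174 CPM. The 10 proliferation genes fell as well, from 1028 to 1286 CPM to 80.72 to 99.83 CPM in C2C12 iCdh23, from 895.1 to 1091 CPM to 133.3 to 202.7 CPM in C2C12 iMcam, and from 1504 to 1556 CPM to 547.2 to 574.1 CPM in C2C12 iMyoD1. At 120 h in whole cultures 7 of the 12 contractile genes fell and 1 rose, from 21740 to 25620 CPM to 15850 to 18110 CPM in sum, while 8 of the 10 proliferation genes rose and 1 fell, from 324.7 to 355.3 CPM to 526.1 to 594.9 CPM (median 0.68), where 21.4% of all genes rose and 23.7% fell. The part of these shifts in the members' changes was not tested.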

How the data were processed

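The authors quantified 150 bp paired-end polyA libraries with nf-core/rnaseq (Salmon) on mm10; the annotation and strand setting are not given in the sources used here. The deposited tables used here hold estimated counts per transcript. Here estimated counts were summed per gene and rounded, and edgeR 4.0.16 (TMM, quasi-likelihood test, Benjamini-Hochberg) was run on each comparison's libraries over all genes passing filterByExpr, with the interaction terms over both pairs of groups. TPM, computed here from these counts and annotated transcript lengths, served only to compare genes within a library. Summed shares and ratios were compared by exact 2-sided permutation tests. Totals of 15066338 to 50950674 counts set the precision.

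The members and all gene lists were chosen with earlier results of these data known, so their counts are descriptions and carry no test of their own. Genes named are the 13 mt- genes, the Sdh genes, Cyc1, the complex IV isoform pairs, Ndufs1, Ndufv1, Uqcrc1, Uqcrfs1, Atp5a1 and Atp5b. In each comparison the rule adds the 3 members with the largest called, non-overlapping change each way at 5 CPM or more. Ndufs3, Ndufs4, Ndufa8, Ndufa9, Ndufa10, Cox5a and Atp5c1 are outside the rule and were named after their values were seen. Same-numbered libraries deviated together (every correlation over 0.1) in C2C12 iMcam, at 0.227 to 0.419, and between the fractions without dox, at 0.117 to 0.413, by which these numbers were taken as pairs. Alternatives were DESeq2 1.42.0, RLE scaling, no count filter, one fit of all groups, a replicate block, leaving out each library, library sizes without mt- genes and, chosen after seeing the data, the length adjustment, scaling by library totals without TMM, and mt- genes summed with their nuclear copies. Promoters are from RefSeq GRCm38.p6.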

Additional observations from a re-analysis of the deposited data

Results flagged for a closer look

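By the interaction term of edgeR's fit, dox effects on single members differed between times and between lines (adjusted p under 0.05). From 0 h to 24 h in C2C12 iMyoD1, the dox effect was higher for 1 nuclear member and lower for 10, from -0.52 for Uqcrfs1 to -0.24 for Atp5b. It was lower for 4 mt- genes, from -0.46 for mt-Co2 to -0.27 for mt-Nd2. Of all genes 34.1% differed, 13.3% higher and 20.7% lower, so that both nuclear counts (1.25% and 12.5% of 80) lie under the background. After length adjustment 3 nuclear members were higher and 17 lower. Scaled to library totals alone 16 were higher and 1 lower, where 27.0% of all genes were higher and 9.97% lower. At 48 h it was higher in C2C12 iMyoD1 than in C2C12 iCdh23 for 19 nuclear members, from 4.92 for Cox6a2 to 0.37 for Atp5b, where 35.8% of all genes differed, 21.6% higher and 14.2% lower, so that this count lies near the background. Length adjustment left 5 of these 19 higher and called 22 nuclear members lower, and library totals alone gave 9 higher and 3 lower. It was higher than in C2C12 iMcam for 3, Cox8b (1.86), Ndufa10 (0.40) and Sdhc (0.39), where 6.41% of all genes differed, 4.06% higher and 2.35% lower; Cox8b alone was called after length adjustment, and 1 member with library totals alone. Both 48 h comparisons span 2 tables, and line and table cannot be told apart.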

How the results depend on the processing

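Over 64 counts of calls, 24 medians and 203 named genes, library sizes without mt- genes changed no call, and the length adjustment and scaling by library totals alone changed most. With it the nuclear median moved to 0.033 at 0 h, 0.08 at 120 h, -0.034 in C2C12 iCdh23, -0.129 in C2C12 iMcam, 0.063 from 0 to 24 h, 0.197 from 24 to 48 h and 0.206 from 48 to 120 h. The mt- median moved to 0.159 at 0 h, 0.09 at 48 h, 0.521 in C2C12 iCdh23, 0.136 from 0 to 24 h, -0.505 from 24 to 48 h and 1.314 from 48 to 120 h. Nuclear rises became 15 at 0 h, 18 at 24 h, 18 in C2C12 iCdh23, 8 in C2C12 iMcam and 36 from 48 to 120 h, and falls 4 at 0 h, 38 at 48 h, 24 in C2C12 iCdh23, 22 from 0 to 24 h, 20 from 24 to 48 h and 13 from 48 to 120 h. Differences of dox effects became 3 higher and 17 lower between 24 h and 0 h, 5 and 22 against C2C12 iCdh23, and 1 higher against C2C12 iMcam.

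Direction turned under length adjustment for 16 named genes: at 0 h Cox7a2 (0.02), Ndufa1 (0.028), Ndufa4 (0.096) and mt-Atp8 (0.437), from 0 to 24 h mt-Atp8 (-0.257), from 24 to 48 h Atp5b (-0.035), and from 48 to 120 h Atp5b (0.109), Cox4i1 (0.122), Cox6b1 (0.528), Cox7a2 (0.411), Cox7a2l (0.081), Cox7b (0.485), Ndufa4 (0.708), Sdhd (0.316), mt-Co2 (0.282) and mt-Co3 (0.414); 27 more lost their call. Summed with its copy, mt-Nd3 from 24 to 48 h turned to -0.04, and 6 named genes lost their call. The cause of these changes was not tested beyond the adjustment itself.

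With library totals alone the nuclear median moved to 0.01 at 0 h, 0.141 at 24 h, 0.193 at 120 h, -0.035 in C2C12 iCdh23, -0.095 in C2C12 iMcam, 0.092 from 0 to 24 h and -0.788 from 48 to 120 h, and the mt- median to 0.08 at 0 h, 0.095 at 24 h, 0.299 at 48 h, 0.513 in C2C12 iCdh23, 0.124 from 0 to 24 h and -0.281 from 24 to 48 h. Nuclear rises and falls became 8 and 6 at 0 h, 32 and 2 at 24 h, 18 and 10 at 48 h, 30 and 8 at 120 h, 18 and 20 in C2C12 iCdh23 and 5 and 19 in C2C12 iMcam, falls 14 from 0 to 24 h and 13 from 24 to 48 h, and rises 0 from 48 to 120 h. Differences became 16 higher and 1 lower between 24 h and 0 h, 9 and 3 against C2C12 iCdh23 and 1 higher against C2C12 iMcam. Direction turned at 24 h for Atp5a1 (0.088), Atp5b (0.019), Cox4i1 (0.016), Cyc1 (0.036), Ndufv1 (0.039), mt-Co3 (0.038) and mt-Nd1 (0.035), and from 0 to 24 h Sdhc stood at 0; 45 named genes lost their call. The typical gene moved with this scaling by construction.

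Without the count filter rises were 3 at 0 h, 14 at 48 h, 4 in the myoblast-enriched fraction (1 fall) and 2 between fractions. One fit of all groups gave 2 rises at 0 h, 22 falls in C2C12 iCdh23, 1 rise and 14 falls in C2C12 iMcam and 1 rise between fractions, and ended 30 named calls. DESeq2 gave 1 fall in the myoblast-enriched fraction and 2 rises between fractions, and RLE 6 lower between 24 h and 0 h and 1 lower against C2C12 iCdh23. With a replicate block rises were 2 at 0 h, 10 at 120 h (12 falls), 6 in the myoblast-enriched fraction (2 falls) and 3 between fractions, and 6 were higher against C2C12 iMcam. Outside C2C12 iMcam and the fractions without dox the numbers were not taken as pairs, also in the myoblast-enriched fraction, where the only 2 shared numbers correlated at 0.431 and 0.3 and the block called 13.9% of all genes higher and 14.5% lower, with 3 mt- rises.

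Leaving out each library in turn, the nuclear median ran from -0.186 to 0.576 in the myotube-enriched fraction, -0.402 to -0.233 in C2C12 iMcam and -0.724 to -0.617 from 48 to 120 h, and the mt- median from 0.078 to 0.179 at 48 h, 0.102 to 0.455 at 120 h, 0.244 to 0.32 from 0 to 24 h and -0.316 to -0.156 from 24 to 48 h. Rises ran from 1 to 2 at 0 h, 4 to 12 at 24 h, 6 to 24 at 48 h, 10 to 19 at 120 h, 0 to 2 in the myoblast-enriched fraction, 2 to 7 in C2C12 iCdh23, 1 to 3 in C2C12 iMcam, 0 to 4 from 48 to 120 h and 0 to 1 between fractions, and falls from 12 to 27 at 0 h, 15 to 29 at 48 h, 7 to 21 at 120 h, 0 to 1 in the myoblast-enriched fraction, 4 to 12 from 0 to 24 h and 6 to 13 from 24 to 48 h. Differences ran from 0 to 3 higher and 7 to 22 lower between 24 h and 0 h, 16 to 34 higher and 0 to 3 lower against C2C12 iCdh23, and 0 to 17 higher against C2C12 iMcam. Of the named-gene values of these fits 1049 kept and 168 lost their call. Counts of Cox4i2, Cox6b2, Cox7b2 and Cox8c were too low for any test at this depth.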
